A study of Homo sapiens with 12 samples.

Results

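The transcripts of 32 genes of purine and pyrimidine nucleotide synthesis and salvage were followed in KEAP1-mutant lung cancer cells after transfection with siRNA against NRF2. The 32 genes were taken by name from a list of pathway genes, drawn up with earlier results of these data known, and every one had a row among the 57815 genes measured in each library. The libraries came from 3 established non-small cell lung cancer lines, A549, H2023 and H460, all with a KEAP1 mutation according to the labels. A549 and H2023 are labelled lung adenocarcinoma and H460 large cell carcinoma. Cells received control siRNA or siRNA against NRF2, the transcription factor encoded by NFE2L2, and were harvested 48 h later. There were 6 groups with 2 libraries in each. The control libraries were biological duplicates, and the NRF2 siRNA libraries of a line were made with siRNA 28 and siRNA 30, which the study treated as duplicates. Ribosomal RNA was removed from A549 RNA and A549 cells were grown in high-glucose medium, whereas polyA RNA was selected from H2023 and H460, which were grown in low-glucose medium. A549 therefore cannot be told apart from its medium and library protocol in any comparison with the other lines, whereas H2023 and H460 share both. The knockdown was transient, all controls carry the KEAP1 mutation, and no line with intact KEAP1 is part of these 12 libraries.

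Cells make nucleotides either de novo or by salvage of free bases and nucleosides. Both routes of base addition draw on phosphoribosyl pyrophosphate (PRPP), an activated ribose phosphate. The purine chain builds inosine monophosphate (IMP) on this ribose and then branches to adenine and guanine nucleotides. The pyrimidine chain makes the ring first and joins it to PRPP afterwards. Ribonucleotide reductase turns ribonucleotides into the deoxynucleotides of DNA, and kinases carry mono- and diphosphates to triphosphates. NRF2 is best known for inducing detoxification and glutathione genes through the antioxidant response element (ARE), and in cancer cells also for the pentose phosphate pathway, which supplies ribose phosphate.

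The regulatory sequence shared by PPAT and PAICS is shown because these neighbouring genes encode steps of the same chain and had lower levels after NRF2 siRNA in all 3 lines, as described below. PPAT is the first committed enzyme of purine synthesis and PAICS carries out a pair of later steps. They lie head to head on chromosome 4. In the RefSeq promoter table (GRCh38.p14) their start sites are 137 bases apart and their windows, from 250 bases before to 50 bases after the start, share 236 bases. The PPAT window lies on the minus strand at chr4:56435566-56435865. The capitals mark an E-box (CACGTG) and a match to the ARE core (TGACNNNGC).
PPAT: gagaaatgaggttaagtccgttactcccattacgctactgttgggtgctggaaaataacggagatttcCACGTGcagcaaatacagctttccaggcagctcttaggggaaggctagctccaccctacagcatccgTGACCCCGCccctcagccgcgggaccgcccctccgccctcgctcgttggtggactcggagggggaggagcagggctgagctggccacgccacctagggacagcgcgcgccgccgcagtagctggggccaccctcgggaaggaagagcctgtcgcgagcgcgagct

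Both matches also lie in the overlapping PAICS window on the plus strand, chr4:56435502-56435801. A total of 30 of the 32 genes had an entry in that table, with 46 windows, and ADSL and IMPDH2 had none. Searched on both strands, the ARE core letters were found in 10 of the 46 windows (21.7%), belonging to 8 genes (ADK, DCK, DCTD, GUK1, PAICS, PPAT, RRM1 and TK1), against 13.3% of all 35116 windows. The E-box was in 13% of the genes' windows and 7.26% of all. The E2F letters (TTTCGCGC, TTTGGCGC, TTTCCCGC or TTTGCCGC) were in 10.9% and 3.31%. These are matches of letters and were not tested, and a gene with several windows counts more than once.

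NFE2L2, the siRNA target, was at 38.2 and 30.9 FPKM in the A549 controls and at 5.31 (siRNA 28) and 7.84 (siRNA 30) after knockdown. It was at 120 and 118 against 7.74 and 6.80 in H2023, and at 144 and 99.5 against 6.54 and 12.2 in H460, so that all siRNA libraries lay below all controls of their line. FPKM is a level per transcript length and library size. The deposited files give no read count per library, and between 12732 and 13909 genes per library reached 1 FPKM. The authors' mean normalised count of the 32 genes, a measure of the depth behind them, ranged from 351.3 (HPRT1) to 8357.3 (PAICS) in A549, from 169.3 (TK2) to 5984.3 (RRM2) in H2023 and from 210.2 (TK2) to 4646.1 (RRM2) in H460. Of 6 lung adenocarcinoma markers (NKX2-1, NAPSA and 4 surfactant genes), none reached 1 FPKM on average in the controls of any line. KRT8 and KRT18, epithelial keratins, were at 298 FPKM or above in every library, while CDH1 was below 1 FPKM in the H460 controls.

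In the control cells all 32 genes were at 2.76 FPKM or above, and all passed the filter on low values in every line. NME1, a nucleoside diphosphate kinase, had the highest level in every line, at 321 ± 9.64 FPKM in A549, 186 ± 21.8 in H2023 and 356 ± 28.2 in H460 (SD, n = 2). Its next neighbour was APRT in A549 (194 ± 24.9) and H2023 (145 ± 7.19) and IMPDH2 in H460 (291 ± 59.7). In H460 these 2 genes came close without overlap, with NME1 at 376 and 336 FPKM and IMPDH2 at 333 and 249. TK2, the mitochondrial thymidine kinase, was the lowest in every line, at 6.92 ± 0.932, 3.26 ± 0.597 and 3.12 ± 0.506 FPKM. Some control levels stood far apart between lines, such as HPRT1 at 10.1 ± 2.01 FPKM in A549 and 108 ± 3.04 in H460, or ATIC at 18.1 ± 3.47 and 165 ± 29.8. The A549 and H460 libraries differ in protocol, whether FPKM were scaled together across lines is not given in the sources used here, and levels were not tested across lines.

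The response to NRF2 siRNA was broad in H460 and below the threshold in the other lines. In H460, 12 of the 32 genes were lower and 1 was higher at a limma adjusted p under 0.05, taken over all 13446 genes tested. Of all genes tested in that line, 6.86% were lower and 7.12% higher. The 32 genes had a median log2 fold change of -0.94 against -0.01 over all genes, and 29 of 32 were negative. In A549 none of the 32 passed in either direction, where 0.554% of all genes were lower and 0.122% higher, and 5 had an unadjusted limma p under 0.05, as had 13.3% of all genes. In H2023 none passed either, where 0.583% of all genes were lower and 0.327% higher, and 6 had an unadjusted limma p under 0.05, as had 16.9% of all genes. These counts lie near the share of all genes. The 32 genes had a median of -0.12 on the log2 scale in A549 and of -0.06 in H2023, against 0.02 over all genes in both. The H460 count rested on few libraries. It was 0 without either of the 2 control libraries and 22 without the siRNA 28 library, 0 when no filter on low values was used, and 7 when mitochondrial transcripts were left out of the scaling. The median moved less, and lay between -1.12 and -0.79 in these fits.

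**Figure D1:**
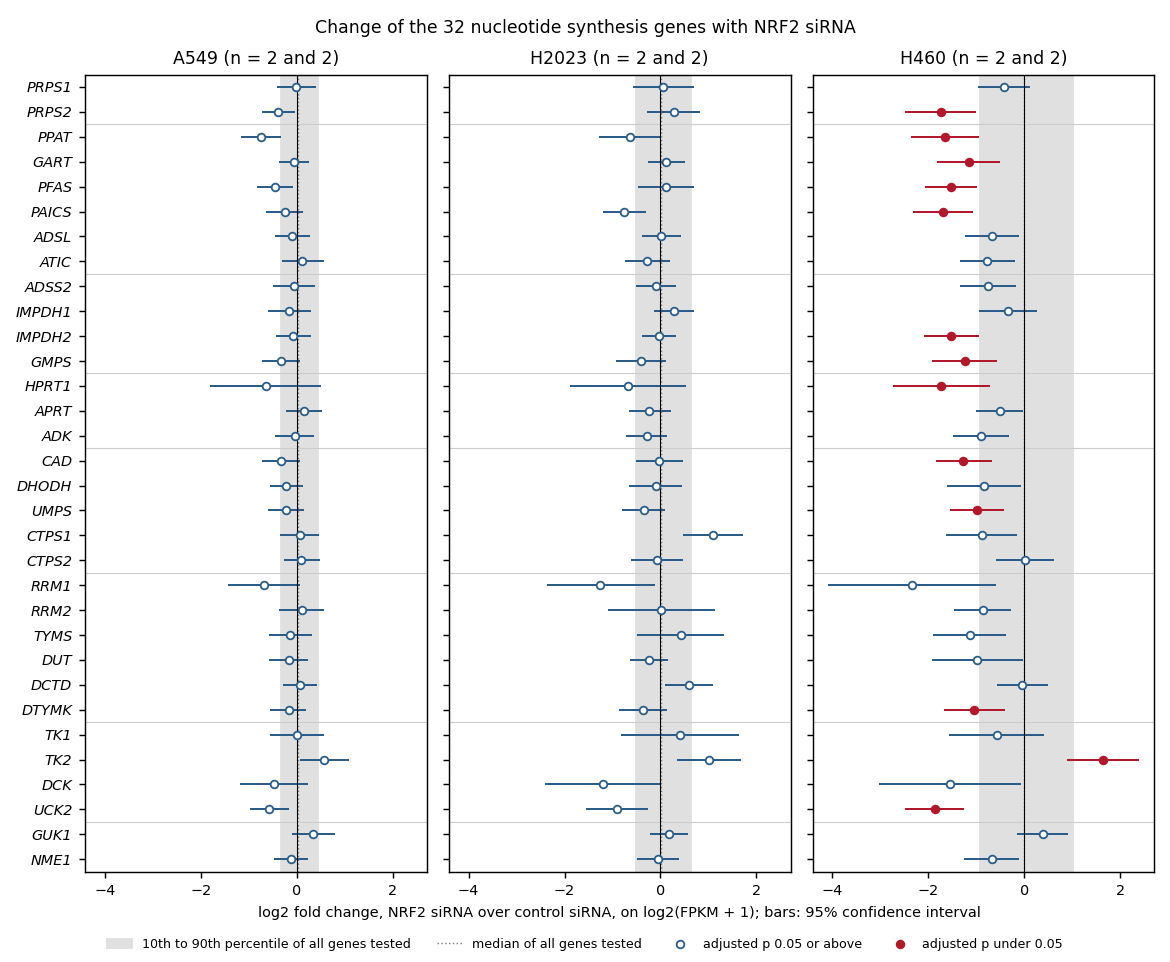
Log2 fold change of each of the 32 genes (rows, in groups by role) with NRF2 siRNA over control siRNA in A549, H2023 and H460, with 95% confidence intervals from limma and 2 libraries per group. The 13 filled points, all in H460, have an adjusted p under 0.05, and 16 of the 32 H460 points lie left of the grey band that holds the 10th to 90th percentile of all genes tested (-0.92 to 1.01 in H460).

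Read without a model, both siRNA libraries lay below both controls for 26 of the 32 genes in H460, 13 in A549 and 12 in H2023. Over all genes tested this was so for 31.6%, 20.5% and 22.0%, respectively. Both lay above both controls for 2, 3 and 7 of the genes, against 31.1%, 25.2% and 27.0% of all genes. For 7 genes both siRNA libraries were below both controls in all 3 lines, namely PPAT, PAICS, GMPS, UMPS, RRM1, DCK and UCK2, as for 7.2% of the 11571 genes tested in every line. For TK2 and GUK1 they were above in all 3, as for 8.18% of those genes. PRPS2, GART, APRT and CTPS1 were below both controls in 1 line and above both in another, which 4 of 32 genes did beside 11.1% of all genes. An RNA measure of whole cultures cannot tell fewer expressing cells from less RNA per cell.

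Several other measures moved with the H460 result. The summed level of the 32 genes was 2830 to 3010 FPKM in the H460 controls and 1490 to 1800 after NRF2 siRNA. The summed level of 20 cell cycle genes, among them MKI67, TOP2A and the MCM helicase subunits, was 1650 to 1760 FPKM in the same controls and 603 to 678 after NRF2 siRNA, and 15 of the 20 were lower (limma adjusted p under 0.05), beside 6.86% of all genes, with a median log2 fold change of -1.47. None of the 20 passed in A549 or H2023, although 19 of 20 in A549 and 16 of 20 in H2023 had negative log2 fold changes (medians -0.24 and -0.36). Their sum was 2020 and 1870 FPKM in the A549 controls and 1480 and 1740 with siRNA 28 and siRNA 30, and in H2023 it was 1400 and 1530 against 886 and 1570. The mitochondrial share of the FPKM sum was 8.56% and 13.14% in the H460 controls and 20.8% and 25.96% after NRF2 siRNA. In H2023 it was 11.97% and 18.12% against 17.35% and 22.76%, and in A549 it was at most 1.56%. With mitochondrial transcripts left out, the median of all genes in H460 was 0.12 and that of the 32 genes -0.79. MYC, a transcription factor known to drive nucleotide synthesis genes, was at 495 and 299 FPKM in the H460 controls and at 35.2 and 70.1 after NRF2 siRNA (log2 fold change -2.93 ± 0.40 SE, limma adjusted p = 0.0168). In A549 and H2023 its log2 fold changes were -0.50 and -0.53 (limma adjusted p = 0.321 and 0.233). CDKN1A, a cell cycle inhibitor, was at 23.9 and 21.0 FPKM and at 130 and 57.1 after knockdown (1.90 ± 0.39 SE, limma adjusted p = 0.0314). MYC and CDKN1A were named after their values were seen. The part of these measures in the levels of the 32 genes was not tested.

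**Figure D2:**
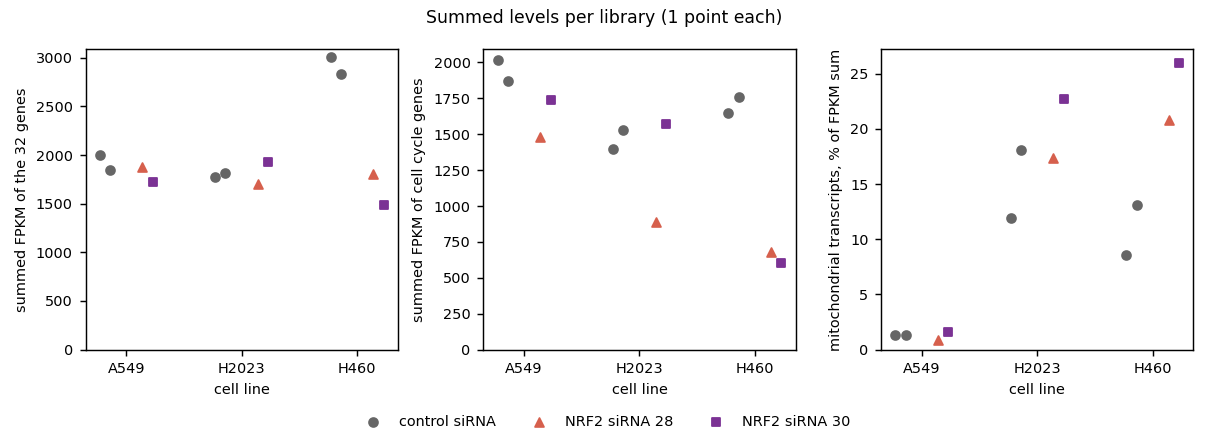
Summed FPKM of the 32 genes, summed FPKM of 20 cell cycle genes, and mitochondrial share of the FPKM sum, 1 point per library, by cell line. In H460 both sums are lower in the 2 NRF2 siRNA libraries than in the controls and the mitochondrial share is higher, while in A549 and H2023 the sum of the 32 genes stays between 1700 and 2000 FPKM.

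PRPP is made by the synthetases PRPS1 and PRPS2, both on the X chromosome. PRPS2 (chrX:12809474-12842341, GRCh37) was at 31.1 and 34.6 FPKM in the H460 controls and at 12.1 and 6.82 with siRNA 28 and siRNA 30. It fell by 1.74 on the log2 scale (SE 0.31, limma adjusted p = 0.024). In A549 it was at 40.1 and 39.2 against 32.2 and 28.4 FPKM, and in H2023 the order was turned, at 9.61 and 13.1 against 14.2 and 13.5 FPKM. PRPS1 was at 92.5 and 94.2 FPKM in the H460 controls and 61.0 and 79.1 after knockdown, which did not pass the threshold (limma adjusted p = 0.247). The ratio of PRPS1 to PRPS2 in H460 was 2.97 and 2.73 in the controls and 5.05 and 11.6 after NRF2 siRNA. In A549 the ratio was also higher after knockdown, by less, at 1.55 and 1.25 against 1.79 and 1.84. The H2023 ratios overlapped, between 1.87 and 3.16.

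Of the 6 enzymes of the purine chain, 4 fell in H460, namely PPAT, GART, PFAS and PAICS. All 6 had negative log2 fold changes there, from -1.69 to -0.67, against -0.74 to 0.12 in A549 and -0.75 to 0.12 in H2023. PPAT (chr4:57259528-57301781, GRCh37) was at 15.9 and 14.7 FPKM in the H460 controls and at 3.21 and 5.29 after NRF2 siRNA (log2 fold change -1.66 ± 0.30 SE, limma adjusted p = 0.0247). It was at 13.9 and 17.2 against 8.25 and 9.47 FPKM in A549, and at 12.1 and 13.2 against 6.16 and 9.76 FPKM in H2023. The groups did not overlap in any line, and its log2 fold changes of -0.74 and -0.64 in A549 and H2023 did not pass the threshold (limma adjusted p = 0.187 and 0.303). PAICS (chr4:57301907-57330744), whose reads can be shared with 7 annotated pseudogenes, showed the same order of groups. It was at 141 and 138 FPKM in the H460 controls and at 51.9 and 34.5 after knockdown (-1.69 ± 0.26 SE, limma adjusted p = 0.0195). The H2023 values were 119 and 113 against 76.8 and 60.8 FPKM, and those of A549 97.0 and 97.5 against 90.9 and 72.9 FPKM, a smaller step.

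GART (chr21:34876238-34915797) carries 3 activities of the chain, and PFAS (chr17:8150936-8173809) adds an amide nitrogen from glutamine. GART was at 157 and 111 FPKM in the H460 controls and at 68.0 and 50.7 after NRF2 siRNA (-1.16 ± 0.27 SE, limma adjusted p = 0.0409). PFAS was at 75.4 and 73.7 against 22.4 and 28.4 FPKM (-1.53 ± 0.22 SE, limma adjusted p = 0.0188). In A549, PFAS was also below its controls in both siRNA libraries, at 42.0 and 35.4 against 26.7 and 29.2 FPKM (-0.45 ± 0.15 SE, limma adjusted p = 0.303), whereas GART was at 67.1 and 70.0 against 66.2 and 65.6. In H2023 the PFAS groups overlapped, and GART lay slightly above its controls, at 122 and 115 against 103 and 114 FPKM. ADSL and ATIC, which act at the end of the chain, had log2 fold changes of -0.67 and -0.77 in H460 and did not pass the threshold in any line.

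**Figure D3:**
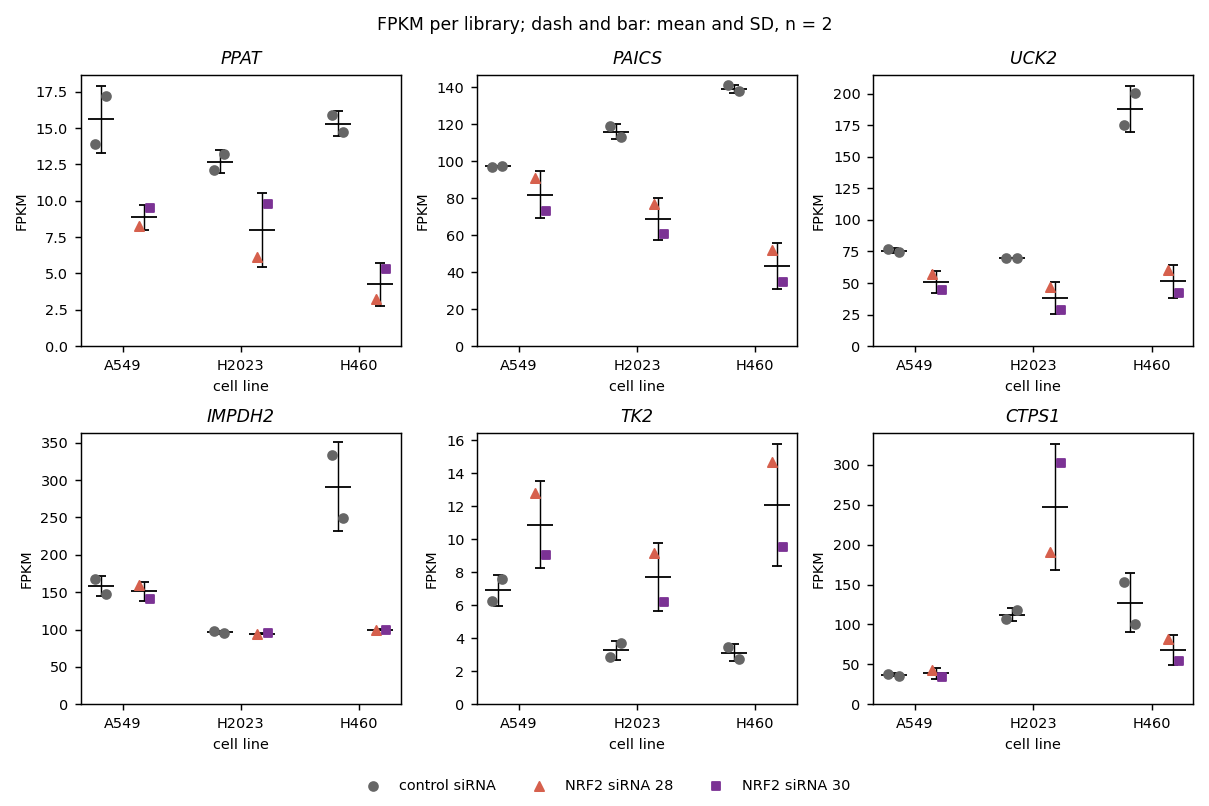
FPKM of PPAT, PAICS, UCK2, IMPDH2, TK2 and CTPS1 in every library by cell line, with the mean and SD of each group (n = 2). PPAT, PAICS and UCK2 are lower and TK2 higher in both siRNA libraries of all 3 lines, IMPDH2 is lower by a wide margin in H460 while its A549 and H2023 groups stay close together, and CTPS1 is higher in H2023 and lower in H460.

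IMP is turned to guanine nucleotides by IMP dehydrogenase and GMPS, and to adenine nucleotides by ADSS2 and ADSL. IMPDH2 (chr3:49061758-49066880), the more abundant dehydrogenase, was at 333 and 249 FPKM in the H460 controls and at 100 and 99.6 after NRF2 siRNA (-1.52 ± 0.24 SE, limma adjusted p = 0.0199). In A549 it was at 168 and 148 against 160 and 141 FPKM, and in H2023 at 97.7 and 95.1 against 94.2 and 95.1. The group means were 158 ± 13.6 and 151 ± 13 FPKM in A549 and 96.4 ± 1.87 and 94.6 ± 0.617 in H2023 (SD, n = 2). IMPDH1 had overlapping groups in H460 (79.4 and 105 against 82.2 and 63.2 FPKM). The ratio of IMPDH2 to IMPDH1 in H460 was 4.20 and 2.37 in the controls and 1.22 and 1.58 after knockdown. It was also lower in H2023, at 3.58 and 3.64 against 3.06 and 2.76. In A549 the ratios overlapped, between 2.87 and 3.3. IMPDH1 has 10 annotated pseudogenes and a same-strand transcript overlaps IMPDH2, so both levels can hold reads of other loci. GMPS (chr3:155588439-155661809) was at 67.6 and 66.5 FPKM in the H460 controls and at 35.6 and 21.7 after knockdown (-1.24 ± 0.28 SE, limma adjusted p = 0.0381). Its groups did not overlap in A549 (82.5 and 70.5 against 65.8 and 55.7 FPKM) or H2023 (45.7 and 50.5 against 42.3 and 30.7 FPKM), where the limma adjusted p was 0.449 and 0.396. ADSS2 had a log2 fold change of -0.76 in H460 (limma adjusted p = 0.0808).

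Of the 3 purine salvage enzymes, HPRT1, APRT and ADK, only HPRT1 passed the threshold, in H460. HPRT1 (chrX:133594195-133654543), which rebuilds IMP and GMP from free bases, was at 110 and 106 FPKM in the H460 controls, 50.9 with siRNA 28 and 19.9 with siRNA 30 (-1.73 ± 0.42 SE, limma adjusted p = 0.0442). In the other lines only the siRNA 30 library stood apart. HPRT1 was at 11.6 and 8.72 FPKM in the A549 controls, 10.6 with siRNA 28 and 3.31 with siRNA 30, and at 29.6 and 35.8 in the H2023 controls, 33.8 with siRNA 28 and 11.6 with siRNA 30. For A549, H2023 and H460 in turn, the log2 fold changes of ADK were -0.04, -0.29 and -0.90, and those of APRT 0.16, -0.23 and -0.51.

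In the pyrimidine chain, CAD and UMPS fell in H460, DHODH, CTPS1 and CTPS2 did not pass, and no member of this group passed in A549 or H2023. CAD (chr2:27440237-27466811) holds the first 3 activities, and was at 40.6 and 38.0 FPKM in the H460 controls and at 13.6 and 18.2 after NRF2 siRNA (-1.27 ± 0.24 SE, limma adjusted p = 0.0283). UMPS (chr3:124449280-124468120), which forms UMP, was at 17.8 and 18.2 against 8.58 and 8.68 FPKM (-0.98 ± 0.23 SE, limma adjusted p = 0.0427). Its siRNA libraries were also below both controls in A549 (27.6 and 31.3 against 26.8 and 23.4) and H2023 (22.6 and 20.0 against 17.5 and 15.4). DHODH, the mitochondrial enzyme between them, was at 16.9 and 18.4 against 12.6 and 7.04 FPKM in H460 (-0.83 ± 0.32 SE, limma adjusted p = 0.124).

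CTP synthetase CTPS1 (chr1:41444972-41478237) had opposite orders of its groups in H2023 and H460, without overlap in either. Its H2023 level was 107 and 118 FPKM in the controls and 191 and 302 with siRNA 28 and siRNA 30 (1.09 ± 0.25 SE, limma adjusted p = 0.139). In H460 it was at 153 and 101 against 81.7 and 54.6 FPKM (-0.89 ± 0.31 SE, limma adjusted p = 0.0982). In A549 the groups overlapped, between 34.2 and 43.5 FPKM. Neither change passed the threshold. CTPS2 stayed near its control level, and between 3.75 and 6.54 FPKM in all H2023 and H460 libraries, so the ratio of CTPS1 to CTPS2 was 24.6 and 31.4 against 49.9 and 80.4 in H2023 and 25.7 and 15.4 against 12.6 and 8.74 in H460.

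Deoxynucleotide and thymidylate synthesis held 6 genes, of which DTYMK fell in H460. DTYMK (chr2:242615162-242626359), thymidylate kinase, was at 36.9 and 45.0 FPKM in the H460 controls and at 23.1 and 16.1 after NRF2 siRNA (-1.04 ± 0.26 SE, limma adjusted p = 0.0488). RRM1 (chr11:4115937-4160162), the large subunit of ribonucleotide reductase, had the lowest log2 fold change of this group but also the widest spread between siRNAs. It was at 86.9 and 78.5 FPKM in the H460 controls, 38.1 with siRNA 28 and 5.99 with siRNA 30 (-2.34 ± 0.73 SE, limma adjusted p = 0.0774). The same order of libraries was seen in H2023 (50.5 and 76.6 FPKM, then 40.2 and 16.3) and A549 (85.1 and 72.4, then 66.2 and 35.3). RRM2, the small subunit, was at 128 and 180 against 80.7 and 84.9 FPKM in H460 (-0.87 ± 0.25 SE, limma adjusted p = 0.0625). With siRNA 30 it was above both controls in A549 (111 against 91.6 and 84.5 FPKM) and H2023 (203 against 108 and 148). The ratio of RRM2 to RRM1 in the siRNA 30 libraries was thus 3.15, 12.5 and 14.2 in A549, H2023 and H460, while it lay between 1.08 and 2.3 in the other 9 libraries. TYMS and DUT had log2 fold changes of -1.14 and -0.98 in H460 (limma adjusted p = 0.0617 and 0.139), and DCTD of -0.04.

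Among the kinases that phosphorylate nucleosides taken from outside the chain, UCK2 fell and TK2 rose in H460. UCK2 (chr1:165796851-165880855), which phosphorylates uridine and cytidine, was at 175 and 201 FPKM in the H460 controls and at 60.4 and 42.1 after NRF2 siRNA (-1.87 ± 0.25 SE, limma adjusted p = 0.0168). It was at 76.9 and 74.4 against 57.1 and 44.6 FPKM in A549 (-0.57 ± 0.16 SE, limma adjusted p = 0.251) and at 69.7 and 70.1 against 47.1 and 28.9 in H2023 (-0.90 ± 0.26 SE, limma adjusted p = 0.187). TK2 (chr16:66541906-66586447) was the one member that rose. It was at 3.48 and 2.76 FPKM in the H460 controls and at 14.7 and 9.51 after knockdown (1.65 ± 0.31 SE, limma adjusted p = 0.0267). Its groups had the same order in A549 (6.27 and 7.58 against 12.8 and 9.06 FPKM) and H2023 (2.84 and 3.69 against 9.15 and 6.23), with limma adjusted p of 0.334 and 0.170. A same-strand transcript overlaps TK2 in the annotation. TK1, the cytosolic thymidine kinase that rises in dividing cells, had overlapping groups in every line, and its ratio to TK2 was 6.58 and 11.3 in the H460 controls and 0.776 and 2.83 after knockdown. GUK1 (chr1:228327663-228336685), guanylate kinase, was at 244 and 237 against 333 and 296 FPKM in H460 and above both controls in the other lines as well, but its log2 fold changes (0.35 in A549, 0.18 in H2023, 0.39 in H460) did not pass. NME1, which overlaps the NME1-NME2 readthrough gene, was at -0.12, -0.05 and -0.68 on the same scale.

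The average effect over the lines was tested in 1 fit of all 12 libraries. A total of 18 of the 32 genes were lower and 1, TK2, was higher on average, where 14.5% of the 11571 genes tested were lower and 15.1% higher. The median over the 32 genes was -0.37 on the log2 scale, against -0.01 over all genes. The smallest adjusted p belonged to UCK2 (average log2 fold change -1.12 ± 0.14 SE, limma adjusted p = 0.000465), PAICS (-0.90 ± 0.12 SE, limma adjusted p = 0.000556), PPAT (-1.01 ± 0.14 SE, limma adjusted p = 0.000814) and TK2 (1.08 ± 0.16 SE, limma adjusted p = 0.00108). RRM1 and HPRT1 had averages of -1.42 and -1.02 with wider errors (SE 0.36 and 0.35, limma adjusted p = 0.0133 and 0.0496). PPAT, PAICS and UCK2 were below both controls in 6 of 6 siRNA libraries, and TK2 above in 6 of 6. For PRPS2, GART, IMPDH2 and CAD the average also passed, with H460 values of -1.74, -1.16, -1.52 and -1.27 beside A549 and H2023 values between -0.38 and 0.28. The count of genes lower on average was 11 without a filter on low values, and 10 or 11 when either control library of H2023 or of H460 was left out.

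Whether the effect differed between lines was tested in the same fit. IMPDH2 was the one member past the threshold (moderated F, limma adjusted p = 0.0407), where 0.786% of all genes were. Its log2 fold change in H460 was 1.45 ± 0.24 SE below that in A549 and 1.49 ± 0.26 SE below that in H2023, while H2023 and A549 differed by 0.04 ± 0.21 SE. Without either H460 control its adjusted p was 0.293 and 0.183, without the H460 siRNA 28 and siRNA 30 libraries 0.0293 and 0.055, and without single libraries of the other lines 0.0286 to 0.0881, so the call depended on single libraries. PRPS2 (limma adjusted p = 0.0559), PFAS (0.0679), PAICS (0.0703), GART (0.0728) and CTPS1 (0.0751) lay just outside. For the other 26 genes it was 0.122 or above. No other member passed.

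HPRT1, RRM1 and DCK were lower and TK1 was higher with siRNA 30 than with siRNA 28 in every line, although none of these differences passed the test. The same order in every line was not particular to them. PAICS, GMPS and UCK2, among others, were also lower with siRNA 30 in every line, with smaller mean differences (0.41, 0.46 and 0.52 on the log2 scale). None of 15716 genes passed between siRNA 28 and siRNA 30 over the 6 NRF2 siRNA libraries (0% at a limma adjusted p under 0.05), and the smallest adjusted p of any gene was 0.123. At an unadjusted p under 0.05 there were 2853 genes (18.2%), 11 of the 32 among them. HPRT1 had that smallest adjusted p, with a mean difference of 1.40 ± 0.13 SE on the log2 scale and differences of 1.43, 1.46 and 1.32 in A549, H2023 and H460. RRM1 differed by 0.89, 1.25 and 2.48 in the same direction (mean 1.54 ± 0.31 SE, limma adjusted p = 0.137). DCK, deoxycytidine kinase, which was picked for description after its values were seen, differed by 0.82, 1.46 and 1.98 (mean 1.42 ± 0.26 SE, limma adjusted p = 0.131). It was at 11.7 and 9.55 FPKM in the H460 controls, 6.87 with siRNA 28 and 0.986 with siRNA 30. The H2023 libraries, in the same order, were at 11.4, 11.0, 7.85 and 2.22 FPKM, and the A549 libraries at 11.5, 10.6, 10.5 and 5.51. TK1 differed the other way, by 0.59, 1.53 and 1.17 higher with siRNA 30. Its H2023 level was 29.8 and 34.4 FPKM in the controls, 24.7 with siRNA 28 and 73.2 with siRNA 30.

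In 1 fit that used the spread of all 12 libraries, 947 of 16572 genes differed between the siRNAs (5.71%), and 6 of the 32 genes were among them, namely HPRT1, RRM1, DCK, TK1, PAICS and UCK2. Because siRNA 28 and siRNA 30 each gave 1 library per line, the spread within a line's NRF2 siRNA group includes any difference between them. NFE2L2 itself was lower with siRNA 28 than with siRNA 30 in A549 and H460 and close between them in H2023. For HPRT1, RRM1 and DCK, the siRNA 30 library was lower in all 3 lines.

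**Figure D4:**
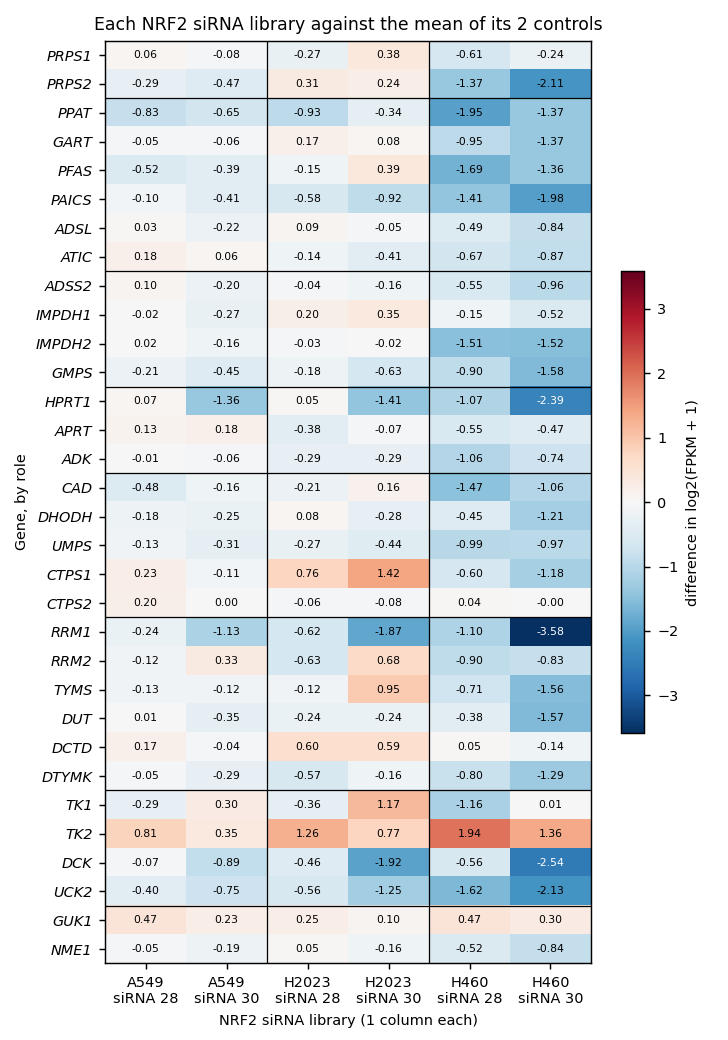
Difference in log2(FPKM + 1) between each NRF2 siRNA library (columns) and the mean of the 2 controls of its line, for the 32 genes (rows, in groups by role). HPRT1, RRM1 and DCK are lower in the siRNA 30 column than in the siRNA 28 column of every line, down to -3.58 for RRM1 in H460, while PPAT and UCK2 are negative and TK2 positive in all 6 columns.

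**Figure D5:**
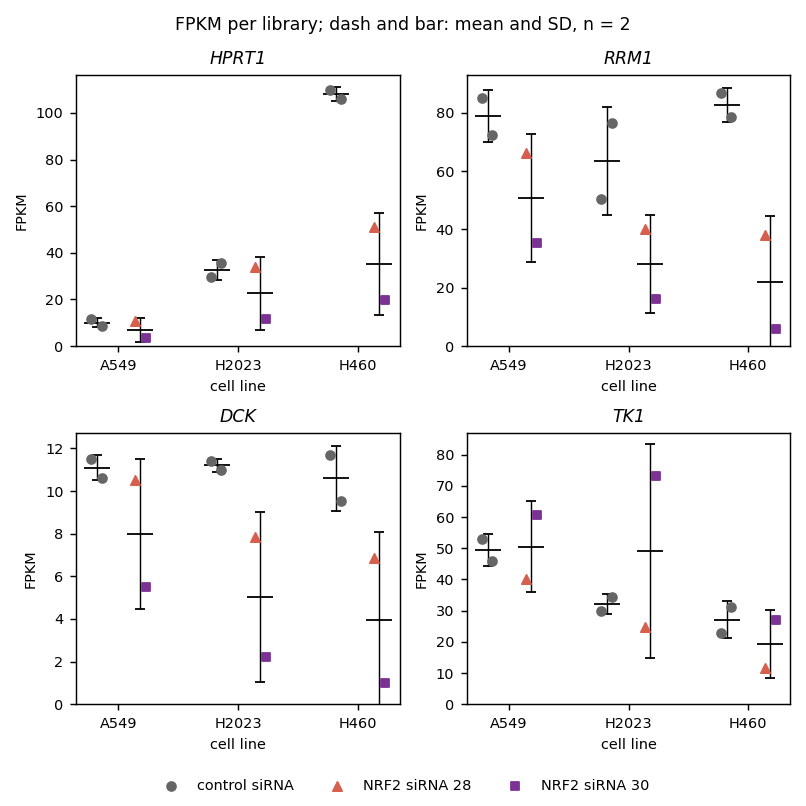
FPKM of HPRT1, RRM1, DCK and TK1 in every library by cell line, with the mean and SD of each group (n = 2), where SD bars that would pass below 0 end at the axis. The siRNA 30 library (square) is the lowest of its line for HPRT1, RRM1 and DCK, and the siRNA 30 library of TK1 is above the siRNA 28 library in all 3 lines.

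Other genes of nucleotide metabolism, such as nucleotidases, catabolic enzymes, transporters and further kinases, passed the threshold in H460 alone among the lines. Of 51 listed, 45 were tested in H460, where 6 fell and 1 rose, beside 6.86% and 7.12% of all genes, with a median log2 fold change of -0.24. None passed in A549 (45 tested, median 0.03) or H2023 (46 tested, median -0.01). On average over the lines, 6 of 44 were lower and 3 higher, beside 14.5% and 15.1% of all genes, so neither count stood above the share of all genes. Among those that fell in H460 were PNP, AK4 and SLC29A1, with log2 fold changes of -1.33, -2.15 and -1.25, and the one that rose was NT5E (2.09), an ectonucleotidase that makes adenosine from extracellular AMP. SLC29A1, a nucleoside transporter, was at 0.79 in H2023 (limma adjusted p = 0.167), and its effect differed between the lines (moderated F, limma adjusted p = 0.0265). These genes were named after their values were seen.

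Genes that supply ribose phosphate and one-carbon units passed the threshold in all 3 lines. Of 16 tested in each line, 4 fell in A549, 3 in H2023 and 7 in H460, beside 0.554%, 0.583% and 6.86% of all genes, and none rose. PGD and TALDO1, enzymes of the pentose phosphate pathway, fell in all 3 lines, and TKT, transketolase, in A549 and H460. PGD, which releases ribulose phosphate, was at 623 and 656 FPKM in the A549 controls and 189 and 240 after NRF2 siRNA (-1.58 ± 0.17 SE, limma adjusted p = 0.0263). It was at 2180 and 1590 against 515 and 378 in H2023 and at 1040 and 948 against 217 and 187 in H460. In the order A549, H2023, H460, the log2 fold changes were -1.58, -2.07 and -2.29 for PGD and -1.53, -1.52 and -1.61 for TALDO1. Those of TKT were -1.80, -1.76 and -2.23, with a limma adjusted p of 0.0728 in H2023. MTHFD2, PHGDH and SHMT1, which serve one-carbon supply and were named after their values were seen, fell in H460, at -2.42, -1.39 and -1.16. As background, PGD, TKT and TALDO1 are known NRF2 targets. Beside them, the lowest log2 fold change among the 32 genes was -0.74 (PPAT) in A549 and -1.25 (RRM1) in H2023, and neither passed the threshold.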

How the data were processed

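RNA was sequenced from 12 libraries of 3 cell lines, in 6 groups of 2. FPKM values, scaled to transcript length and library size, were deposited by the authors, with a separate file for each library. The submitters' processing notes name bcl2fastq 2.15.0, cutadapt 1.15, STAR 2.5.3a, Cuffnorm, HTSeq, DESeq2 and hg19 (GRCh37.p13), whereas the study's methods name TopHat and Cufflinks, and which made the FPKM was not settled. From the authors' deposited comparison tables only the mean normalised count per line (a signal value, of the authors' making) was used. Their fold changes, standard errors, test scores and p-values were not used. No 2 libraries were identical. FPKM under 1e-06 (12710 values) were set to 0.

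A total of 96.1% of gene identifiers matched a symbol. Gene positions are those of whole genes in GENCODE lifted to GRCh37, and promoters those of RefSeq. Fold changes were computed here on log2(FPKM + 1), which understates changes of low genes, with limma 3.58.1 under R 4.3.3 (variance trend, Benjamini-Hochberg adjustment over all genes tested, threshold 0.05). A gene entered the test of a line if 2 or more of the 4 libraries had an FPKM of 1 or more, and the tests across lines if this held in every line, in 1 fit of 6 group means with a weight per line. siRNA 28 was compared with siRNA 30 over the 6 knockdown libraries, adjusting for cell line. P-values of the other tests measure the spread between 2 libraries per group. Those of the siRNA comparison measure how the difference between the siRNAs varied between the lines. The scripts were tested on simulated data. Tables and plots were made in Python 3.11.15 (pandas 2.3.3, numpy 2.4.6, matplotlib 3.10.9).

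Members, gene lists and tests were chosen with earlier results of these data known. Values per library are given for members past the threshold in a line and for isozyme pairs. They are also given for the member with the largest mean change in each of the 8 role groups. Other pathway genes are named when past the threshold in at least 2 lines. PNP, AK4, SLC29A1, NT5E, MTHFD2, PHGDH and SHMT1 passed in H460 only and were named after their values were seen. Alternatives were other pseudocounts, filters, scalings and variance models, a replicate block, and leaving out each library. Cufflinks-type estimates share reads between similar transcripts, so genes with pseudogenes or same-strand overlaps are uncertain. Some genes of the lists are not reported here.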

Additional observations from a re-analysis of the deposited data

Results flagged for a closer look

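Of the 32 genes, 5 were singled out for effects that differ between the lines, IMPDH2 by the test of the difference and the others because both siRNA libraries lay below both controls in 1 line and above both in another. Values are given in the order A549, H2023, H460. The log2 fold changes of IMPDH2 were -0.07, -0.03 and -1.52 (limma adjusted p of the difference between the lines 0.0407). PRPS2 had -0.38, 0.28 and -1.74 (0.0559), GART -0.06, 0.12 and -1.16 (0.0728), APRT 0.16, -0.23 and -0.51 (0.235) and CTPS1 0.06, 1.09 and -0.89 (0.0751), so that for these 4 the test of the difference did not pass. APRT, GART and PRPS2 had opposite orders through small steps in at least 1 of the lines. For PRPS2 in H2023, the higher control was at 13.1 and the lower siRNA library at 13.5 FPKM. These 4 genes were picked out by the order of their values, and so after these were seen. Over the 11571 genes tested in every line, 11.1% had such opposite orders.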

How the results depend on the processing

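No log2 fold change of the 32 genes that had passed the threshold turned its direction. The count of genes lower in H460 (12) was 7 without mitochondrial transcripts, 22 in 1 fit of all 12 libraries, 20 with the replicate block and 0 without a filter on low values, and from 0 to 22 when each library was left out. The count higher in H460 (1) was 0 without a filter and from 0 to 1 when each library was left out. The filter sets how many genes are tested (13446 or 29735 in H460) and which genes set the prior variance. In H2023 the counts of 0 lower and 0 higher were 1 and 1 with the replicate block, and from 0 to 5 and from 0 to 3 when each library was left out. In A549 0 to 2 were lower. On average over the lines, 18 lower became 11 without a filter and 10 to 20 without each library, and 1 higher became 2 with no weights, without mitochondrial transcripts and with the replicate block, and 1 to 2 without each library. The count that differed between lines (1) was 3 with no weights, 2 with median-of-ratios scaling, 0 with the replicate block, and 0 to 6 without each library. The count that differed between siRNAs (0) was 6 in 1 fit of all 12 libraries. The cause of these shifts was not tested. Where a library is left out, its group has 1 library, assumed to vary like the others. The median of the 32 genes in H2023 turned from -0.06 to 0.03 without mitochondrial transcripts, where that of all genes was 0.10. The IMPDH2 difference between lines lost its call with the block (limma adjusted p = 0.0728). Replicate numbers were not taken to pair the samples, as the labels do not say so and not every line showed it. The correlation of deviations between same-numbered libraries came to -0.03 for A549, 0.31 for H2023 and 0.16 for H460, so the block results are given here only. Depth per library is unknown from FPKM.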
